A study of Rattus norvegicus with 12 samples.

Results

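The genes described here encode the motors that carry cargo along microtubules: the kinesins and their light chains (symbols beginning with Kif or Klc), cytoplasmic dynein (Dync or Dynl) and its activator dynactin (Dctn). They were taken from the annotation of the array as every probe set with a single gene symbol that begins with those letters, leaving out 12 kinesins of the mitotic spindle, and each gene was represented by its probe set of highest mean log2 signal over the 12 arrays. The rule gave 46 genes out of 14217 with a single symbol, and these 46 genes held 76 probe sets. By their symbols they include Kifap3 and Kifbp, which encode partners of kinesins and are counted here with the motor genes. Probe sets with several symbols were left out, which removed Dctn3, Dynll1 and 4 probe sets that carry Kif1b together with Cenps, Pgd and Cort.

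RNA was from primary retinal ganglion cells (RGCs) of Sprague-Dawley rat pups of postnatal day 4 to 6, isolated by panning on an antibody to Thy-1.1 and kept for 7 days in serum-free medium with forskolin, ciliary neurotrophic factor (CNTF) and brain-derived neurotrophic factor (BDNF). The medium was then replaced overnight by one that lacked the neurotrophic factors, and 3 of the groups then received an endothelin (ET-1, ET-2 or ET-3, the numbered members of a family of small vasoactive peptides) at 100 nM for 24 h. Control cultures are called untreated in the sample titles and vehicle-treated in the descriptions. The labels do not say whether they also had the overnight change of medium, so its part in the comparisons with untreated was not tested. Each of the 4 groups held 3 Affymetrix Rat 230 2.0 arrays, numbered as biological replicates 1 to 3, and nothing in the labels says whether a number stands for a litter, a preparation or a day, so p-values measure the spread between these samples.

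Kinesins mostly walk towards microtubule plus ends, which in an axon point away from the cell body, and so carry mitochondria, synaptic vesicle precursors and tubulin outward. Cytoplasmic dynein, with dynactin, walks the other way and brings endosomes, autophagosomes and neurotrophin signals back to the soma. An RGC sends its axon through the optic nerve to the brain, and transport along that axon has been studied widely in glaucoma, where endothelins have also been examined.

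Represented by 1 probe set each, none of the 40 tested motor genes passed the limma threshold with ET-1, ET-2 or ET-3, where 1.73%, 1.6% and 2.64% of all tested probe sets did. For most of them the 95% interval lay inside a 1.5-fold change in either direction. The values nearest to the threshold were those of Kif3a, a motor subunit of heterotrimeric kinesin-2, and Kif1c, a kinesin-3, both with ET-3. Between replicate numbers 31 of the 40 differed (77.5%, beside 72.9% of all tested probe sets), and in several genes (Klc1, Kif5a, Kif1a, Kif3a) different probe sets of the same gene gave different values; other probe sets of Klc1 and Kif5a passed.

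All 12 measured RGC markers, among them Rbpms, Sncg, Thy1 and the neurofilament genes, passed the signal filter, and 0 of 5 measured photoreceptor and bipolar markers did. Of other lists, 4 of 6 measured amacrine, 5 of 8 microglia and macrophage and 2 of 6 endothelium markers passed the filter as well. The arrays also held signal of genes that mark other cells, and it moved with the replicate number and with treatment. The summed signal of 10 fibroblast, pericyte and smooth muscle markers was 46934 to 55688 on the 4 arrays of replicate 1 and 12560 to 18916 on the other 8. That of the 12 RGC markers was 86871 to 91756 in replicate 1 and 103679 to 136941 elsewhere. The summed signal of 13 proliferation genes was 5216 in untreated replicate 1 and 12570 to 12862 in the endothelin arrays of that replicate, against 3599 to 4825 on the other 8. Of the 8 tested markers of the fibroblast, pericyte and smooth muscle list, 3 rose and 1 fell for the mean of the 3 endothelins (limma). Their median change was 0.070 over the 8, and 4.88% of all tested probe sets passed in that comparison. With ET-2, 4 of the 10 measured markers of this list were higher and 6 lower. For the mean of the 3 endothelins, 1 of the 12 RGC markers and 1 of the 2 tested endothelium markers fell in limma, and 0 of either list rose. Acta2 and Tagln, genes of contractile cells, rose with each endothelin, by 0.55 and 0.72 for the mean of the 3 (limma adjusted p = 0.000507 and 0.000931), Pdgfrb rose by 1.02 and the collagen gene Col3a1 had a change of -0.27 (adjusted p = 0.0102 and 0.0144). The part of these other cells in the motor values was not tested, and in such bulk samples fewer cells of a type cannot be told apart from less RNA per cell.

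Of the 46 genes, 40 had a probe set at or above the median signal of all probe sets (a signal of 147) and were tested. Most of the transport motors were among them. All 3 kinesin-1 heavy chains (Kif5a, Kif5b, Kif5c), the main anterograde motors of axons, were tested, and so were 3 of 4 kinesin light chains, which bind cargo to them. All 4 kinesin-2 genes, 4 of 5 kinesin-3 genes and 7 of 9 other kinesins also passed. On the dynein side, all 5 dynein-1 genes, which form the axonal retrograde motor, all 4 dynein-2 genes, which serve transport in cilia, 5 of 7 dynein light chain genes and all 5 dynactin genes were tested. The 6 genes left untested were Kif1b, Kif6, Kif12, Klc3, Dynlrb2 and Dynlt5, for which the signal ran from 2.35 to 120.0 over the 12 arrays. Kif1b, an axonal kinesin-3 that carries mitochondria and synaptic vesicle precursors, was represented by a probe set with signals of 21.4, 15.9 and 30.8 without endothelin, 8.85, 25.4 and 35.7 with ET-1, 11.6, 28.0 and 2.35 with ET-2 and 3.56, 18.1 and 58.7 with ET-3. The 4 probe sets that Kif1b shares with other symbols had mean log2 signals of 7.00 to 9.36. Of these, 3 were above the filter, but their signal cannot be assigned to Kif1b alone. Whether the low signal of the probe set that represents Kif1b reflects the level of the gene was not tested. With values so low and scattered, no direction was read for the 6 probe sets.

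**Figure D1:**
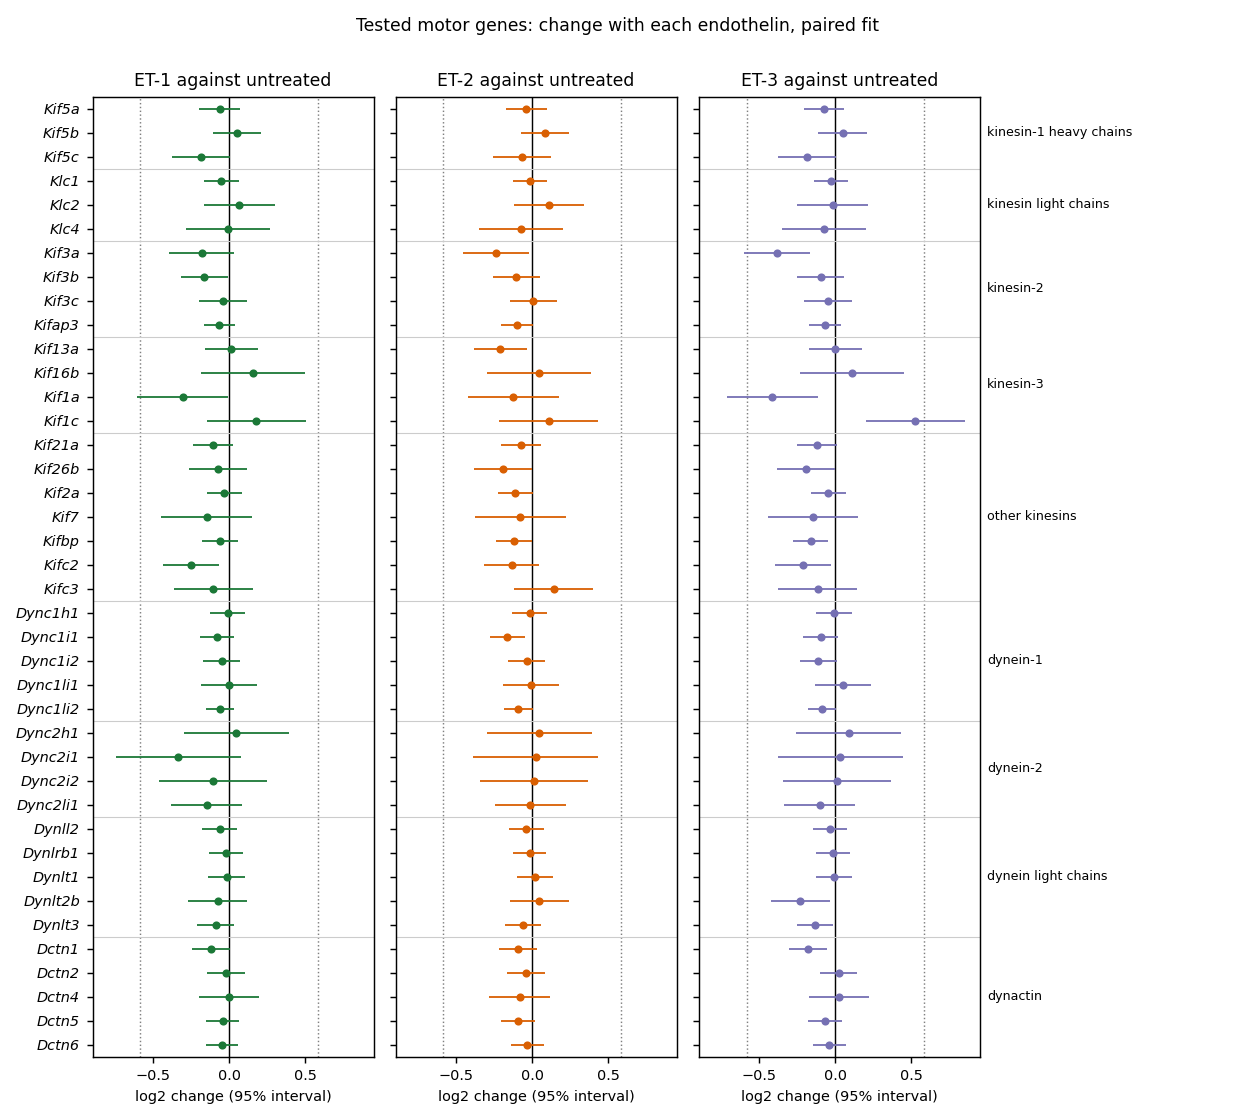
Log2 change of each of the 40 tested motor genes (rows, by motor group) with ET-1, ET-2 and ET-3 against untreated cultures, from the fit that pairs arrays by replicate number (3 arrays a group). Points are estimates, bars 95% intervals, and dotted lines mark a 1.5-fold change. Most intervals lie inside the dotted lines; those that cross them are Kif1a and Dync2i1 with ET-1 and Kif3a, Kif1a and Kif1c with ET-3.

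Each endothelin was compared with untreated cultures by limma on log2 signal, with the replicate number as a block and Benjamini-Hochberg adjustment over all 15521 tested probe sets; values below are log2 changes ± SE with 3 arrays a group, and a mean change is that of the mean of the 3 endothelins. With ET-1, 0 of 40 motor genes passed an adjusted p of 0.05, where 1.73% of all tested probe sets did, and 3 motor genes had an unadjusted p under 0.05, beside 15.5% of all tested probe sets. With ET-2, 0 of 40 passed against 1.6% of all probe sets, with 5 under an unadjusted 0.05 beside 16.3%. With ET-3, 0 of 40 passed against 2.64%, with 9 under an unadjusted 0.05 beside 17.8%. For the mean of the 3 endothelins, which uses all 12 arrays, 0 of 40 passed against 4.88%, with 8 under an unadjusted 0.05 beside 21.8%. Without the replicate block, limma called 0 motor genes and 0 probe sets of the whole array in each of these 4 comparisons (237, 223, 297 and 397 probe sets had an unadjusted p under 0.05).

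For the probe set used for each gene, in the fit with the replicate block, the intervals bound how large a change could have gone uncalled. They do not bound the gene as a whole. Other probe sets of Klc1 and Kif5a, given further below, had mean changes outside the intervals of those used for these genes. The 95% interval lay inside 1.5-fold for 38 of 40 motor genes with ET-1, for 40 of 40 with ET-2 and for 37 of 40 with ET-3. Over all tested probe sets these shares were 86.2%, 86.5% and 85.7%. For the mean of the 3 endothelins the interval lay inside 1.5-fold for 40 of 40 motor genes and inside 1.2-fold for 27 of 40.

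The bulk of the tested motor genes had estimates slightly below 0, and so did most of the probe sets that passed the signal filter. The estimate was below 0 for 33 of 40 with ET-1, 29 with ET-2 and 31 with ET-3, where 57.6%, 56.1% and 57.2% of all tested probe sets were below 0. With no filter, over 14217 genes by 1 probe set each, 50.9%, 48.2% and 49.5% were below 0. The median log2 change of the tested motor genes was -0.062, -0.041 and -0.068 in that order, beside -0.027, -0.023 and -0.029 over all tested probe sets. The motor medians differed between replicates 1 to 3. They were -0.10, -0.057 and -0.040 with ET-1, -0.11, -0.048 and -0.063 with ET-2 and -0.13, -0.065 and -0.0032 with ET-3. Centring each array on its median moved the zero point, since the median log2 signal of ET-2 arrays stood 0.00036, 0.14 and 0.15 above that of their untreated arrays in replicates 1 to 3. After centring, the motor medians were -0.086, -0.14 and -0.12 and those of all tested probe sets -0.051, -0.12 and -0.078. Centring also brought 5 motor genes under an adjusted p of 0.05 with ET-2 (Dync1li2, Kif26b, Kif2a, Dync1i1 and Kif13a), 1 with ET-3 (Kif3a) and 4 for the mean (Dctn1, Kifc2, Kif3a and Dync1i1), all of them below untreated. Of all tested probe sets, 1.18% passed with ET-1 after centring, 7.85% with ET-2, 2.87% with ET-3 and 9.61% for the mean. These comparisons share their untreated arrays, so their directions are not independent of each other. The same holds for the counts out of 9 pairs given below. The share of all tested probe sets that were lower in 9 of 9 pairs was not computed.

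**Figure D2:**
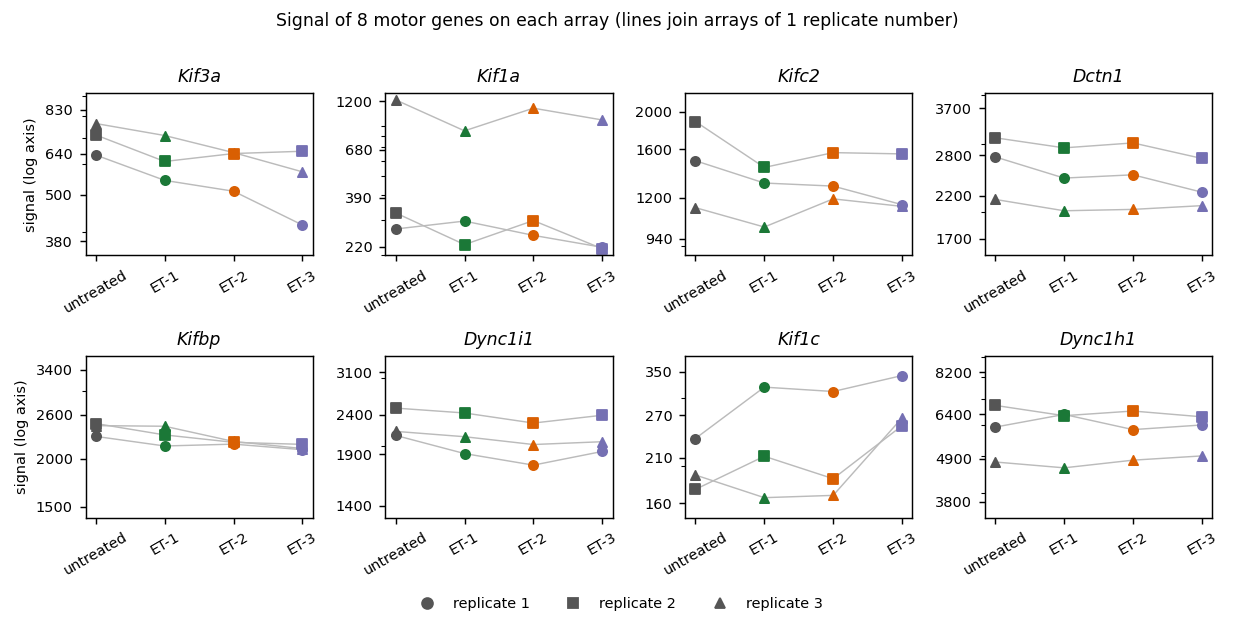
Signal (log axis, with its own range in each panel) of 8 motor genes on each of the 12 arrays, by group; symbols mark the replicate number and grey lines join the 4 arrays of a replicate. Kif3a, Dctn1, Kifbp and Dync1i1 lie lower in all 9 endothelin arrays than in the untreated array of the same number, which the endothelin arrays of that number share. For Kif1a the arrays of replicate 3 stand above all others.

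Among the kinesin-2 genes, Kif3a and Kif3b encode motor subunits that pair with each other and with the adaptor KAP3, the product of Kifap3, while the product of Kif3c can pair with that of Kif3b in neurons. The Kif3a signal (probe set 1378509_at) in replicates 1 to 3 was 634, 715 and 765 without endothelin, 545, 610.5 and 712 with ET-1, 511, 640.0 and 644 with ET-2 and 418, 649 and 574 with ET-3. Every endothelin array was lower than the untreated array of its own number, but the groups overlapped. The change was -0.18 ± 0.10 with ET-1, -0.24 ± 0.10 with ET-2 and -0.39 ± 0.10 with ET-3, with adjusted p of 0.4, 0.255 and 0.0626 in limma, and -0.27 ± 0.081 for the mean of the 3 (adjusted p = 0.0792). The ET-3 value of Kif3a moved across the threshold with the setting: centring the arrays gave an adjusted p of 0.0381, and leaving out ET-3 replicate 2 gave 0.049. A second Kif3a probe set (1377025_at) did not share these values; its signal was 369, 481 and 638 without endothelin, 339.6, 393 and 675 with ET-1, 383, 476 and 678 with ET-2 and 340.3, 471 and 749.9 with ET-3, and its change was -0.11, 0.042 and 0.028.

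By the probe set used for each gene, the partners of Kif3a had smaller estimates, a difference that was not tested. This order depends on the probe set: another Kifap3 probe set, given further below, had a lower mean change than Kif3a. The Kif3b signal was 1744, 1856 and 1631 without endothelin, 1622, 1684 and 1371 with ET-1, 1701, 1809 and 1376 with ET-2 and 1633, 1643 and 1609 with ET-3, lower than its own untreated array in 9 of 9 pairs, with a mean change of -0.12 ± 0.058 (adjusted p = 0.238). Kifap3, the cargo-binding subunit, was also lower in 9 of 9 pairs, with a mean change of -0.078 ± 0.039 (adjusted p = 0.258). Kif3c had a mean change of -0.027 (95% interval -0.15 to 0.10).

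Kinesin-1 is the main anterograde motor of axons, a pair of heavy chains with a pair of light chains. The Kif5a signal was 3802, 5701 and 5739 without endothelin, 3654, 4953 and 6008 with ET-1, 3689.6, 5154 and 6031 with ET-2 and 3681, 4723 and 6121 with ET-3. Replicate 1 was the lowest in each group, and the groups overlapped. Its mean change was -0.060 ± 0.050 (95% interval -0.17 to 0.049; adjusted p = 0.524). Kif5b, the widely expressed heavy chain, had signals of 4696, 5862 and 6665 without endothelin, 4712, 7013 and 6166 with ET-1, 5200.2, 6734 and 6224 with ET-2 and 5021, 6988 and 5786 with ET-3, and a mean change of 0.061 ± 0.060 (95% interval -0.070 to 0.19). Kif5c, a neuronal heavy chain, had signals of 2548, 2997 and 2675 without endothelin, 2248, 2537 and 2426 with ET-1, 2208, 3277 and 2452 with ET-2 and 1883, 2878 and 2552 with ET-3. The endothelin arrays of Kif5c were lower than their untreated arrays in 8 of 9 pairs, with changes of -0.19, -0.068 and -0.19 and a mean change of -0.15 ± 0.071 (adjusted p = 0.249).

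The kinesin light chains recognise cargo and hold the idle motor folded. The probe set that represents Klc1, the main neuronal light chain (1370886_a_at), had signals of 10204, 15370.1 and 12131 without endothelin, 10206, 13560.0 and 12337 with ET-1, 10276, 14386 and 12437 with ET-2 and 9724, 14126 and 13062 with ET-3. Its mean change of -0.032 ± 0.043 had a 95% interval of 0.917 to 1.04 as a fold of untreated. Klc2, another cargo-binding light chain, had a mean change of 0.052 ± 0.087, and Klc4 had -0.053 ± 0.10.

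Kinesin-3 motors carry synaptic vesicle precursors and dense-core vesicles (Kif1a), Golgi and integrin cargo (Kif1c) and endosomes (Kif13a, Kif16b). The Kif1a signal (1384133_at) was 271, 326 and 1219 without endothelin, 297, 226 and 849.6 with ET-1, 251, 298 and 1106 with ET-2 and 219, 215 and 965 with ET-3, so that replicate 3 was the highest in each group. Its change was -0.31 ± 0.14 with ET-1, -0.13 ± 0.14 with ET-2 and -0.42 ± 0.14 with ET-3 (adjusted p = 0.312, 0.705 and 0.137). The ET-1 value was -0.53 without replicate 1 and -0.19 without ET-1 replicate 3. A second Kif1a probe set (1382785_at) gave 0.013, 0.037 and 0.0073, with a signal of 164, 259 and 303 without endothelin, 165, 285 and 280.1 with ET-1, 198, 252 and 277 with ET-2 and 200.3, 241 and 269.9 with ET-3. The third (1397505_at), below the filter and not tested, gave -0.44, -0.28 and -0.52, lower in 9 of 9 pairs. The estimate for Kif1a therefore differed with the probe set chosen.

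Kif1c with ET-3 had the highest estimate among the tested motor genes against untreated. Its signal was 235, 174 and 189 without endothelin, 319, 212 and 165 with ET-1, 311, 185 and 168 with ET-2 and 342, 254 and 266 with ET-3; with ET-3 each array was above its untreated array and the groups did not overlap. The change with ET-3 was 0.53 ± 0.15 (adjusted p = 0.0862), with ET-1 0.18 ± 0.15 and with ET-2 0.11 ± 0.15, and leaving out untreated replicate 3 brought the adjusted p with ET-3 to just under 0.05 (0.049991). Replicate 1, where the fibroblast and proliferation markers above were highest, also held the highest Kif1c signal of each group. Kif13a had signals of 771, 826 and 655 without endothelin, 793, 756 and 715 with ET-1, 679, 691 and 573 with ET-2 and 730.0, 798 and 716 with ET-3, with a change of -0.21 ± 0.080 with ET-2 (adjusted p = 0.215) and 0.013 and -0.00029 with ET-1 and ET-3. Kif16b had a mean change of 0.10 ± 0.13.

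In the group of other kinesins, which by its symbol also holds Kifbp, all 7 tested genes lay below untreated for the mean of the 3 endothelins. These changes ran from -0.20 to -0.027, and 0 of 7 passed in limma (2 had an unadjusted p under 0.05). Kifc2, a neuronal minus-end kinesin, had signals of 1495, 1888 and 1130.3 without endothelin, 1309, 1436 and 1007 with ET-1, 1285, 1569 and 1191 with ET-2 and 1151, 1557 and 1139 with ET-3. Its change was -0.25 ± 0.084 with ET-1, -0.14 ± 0.084 with ET-2 and -0.21 ± 0.084 with ET-3, with 7 of 9 pairs lower and an adjusted p of 0.116 for the mean. Kifbp, a kinesin-binding protein that holds some kinesins off microtubules, had signals of 2283, 2465 and 2434 without endothelin, 2156, 2303 and 2425 with ET-1, 2180.2, 2204 and 2215 with ET-2 and 2109, 2177 and 2123 with ET-3. The 3 ET-3 arrays and the 3 ET-2 arrays of Kifbp were below all 3 untreated arrays, and the change was -0.12 ± 0.053 with ET-2 (adjusted p = 0.283) and -0.16 ± 0.053 with ET-3 (adjusted p = 0.131).

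Kif26b had signals of 1989.7, 2101 and 1534 without endothelin, 1782, 1929 and 1594 with ET-1, 1484, 2033 and 1422 with ET-2 and 1483, 1800.3 and 1606 with ET-3, with a change of -0.19 ± 0.089 with ET-2 and -0.19 ± 0.089 with ET-3. Kif2a, which depolymerises microtubule ends and trims axon branches, had a mean change of -0.064 ± 0.043, with 9 of 9 pairs lower. Kif21a, a kinesin that slows microtubule growth, had -0.10 ± 0.050, Kif7, a kinesin of ciliary Hedgehog signalling, -0.13 ± 0.11, and Kifc3, a minus-end kinesin, -0.027 ± 0.10. With ET-2 alone Kifc3 had a change of 0.14, and of 0.027 to 0.27 with arrays left out.

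Cytoplasmic dynein-1 is built on the heavy chain Dync1h1, which hydrolyses ATP, with intermediate and light intermediate chains that bind dynactin and adaptors. The Dync1h1 signal was 5922, 6739 and 4810.5 without endothelin, 6385, 6337 and 4646 with ET-1, 5834, 6516 and 4863 with ET-2 and 5997, 6296 and 4988 with ET-3. The groups overlapped, and the mean change was -0.012 ± 0.043, with a 95% interval of 0.929 to 1.06 as a fold of untreated. Dync1i1, the intermediate chain typical of neurons, had signals of 2125, 2500.5 and 2177 without endothelin, 1907, 2429 and 2109 with ET-1, 1780.5, 2287 and 2013 with ET-2 and 1931, 2396 and 2047 with ET-3, lower than the untreated array in 9 of 9 pairs. Its change with ET-2 was -0.17 ± 0.053 (adjusted p = 0.155) and its mean change -0.11 ± 0.043 (adjusted p = 0.151).

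The widely expressed intermediate chain gene Dync1i2 had a mean change of -0.067 ± 0.046. Of the light intermediate chains, Dync1li2 had signals of 6738, 8145 and 7113 without endothelin, 6296, 7863 and 6943 with ET-1, 6084, 7836 and 6766 with ET-2 and 6129, 7649 and 6925 with ET-3, with a mean change of -0.081 ± 0.035 (adjusted p = 0.206) and 9 of 9 pairs lower. Dync1li1 had a mean change of 0.013 ± 0.069. Its second probe set (1370576_at) had changes of -0.19, -0.22 and -0.11 with ET-1, ET-2 and ET-3. The mean change of that probe set was -0.17 ± 0.071 (limma adjusted p = 0.181).

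The dynein light chains are small dimers at the base of the motor. Dynlt1, a Tctex-type light chain, had signals of 7278, 9401 and 6753 without endothelin, 7131, 9352 and 6685 with ET-1, 7532, 9021 and 7063 with ET-2 and 7701, 8388 and 7019.6 with ET-3 and a mean change of -0.0027 ± 0.045. Dynlrb1, a roadblock light chain, had signals of 7107, 8504 and 7488 without endothelin, 7141, 8781 and 6892 with ET-1, 7431, 8599 and 6817 with ET-2 and 7250.3, 8259 and 7329 with ET-3 and a mean change of -0.018 ± 0.042. Dynll2, which also binds myosin V cargo, had signals of 6346, 7584 and 6679 without endothelin, 5743, 7716 and 6349.9 with ET-1, 5751, 7844 and 6561 with ET-2 and 6203, 7278 and 6623 with ET-3 and a mean change of -0.046 ± 0.043. For the probe sets used for these 3 genes the intervals of the mean change excluded a change beyond 1.2-fold. The fold ranges were 0.932 to 1.07 for Dynlt1, 0.927 to 1.05 for Dynlrb1 and 0.908 to 1.03 for Dynll2.

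Dynlt3 and Dynlt2b had an unadjusted p under 0.05 with ET-3 and did not pass. Dynlt3, another Tctex-type light chain, had signals of 1837, 2094 and 2884 without endothelin, 1608, 2084 and 2742 with ET-1, 1689, 2109 and 2741 with ET-2 and 1566, 2001 and 2671 with ET-3 and a change with ET-3 of -0.14 ± 0.055 (adjusted p = 0.218). Dynlt2b, a light chain of the ciliary dynein, had signals of 956, 1105 and 688 without endothelin, 769, 1139.9 and 705 with ET-1, 865, 1197 and 773 with ET-2 and 698, 1091 and 589.7 with ET-3 and a change with ET-3 of -0.23 ± 0.090 (adjusted p = 0.201). The 4 dynein-2 genes, which code for the retrograde motor of cilia, had mean changes of 0.061 ± 0.13 for the heavy chain Dync2h1, -0.094 ± 0.16 for Dync2i1, -0.028 ± 0.13 for Dync2i2 and -0.089 ± 0.088 for Dync2li1, with wide errors.

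Dynactin links dynein to cargo and makes it processive. Dctn1, the gene of p150Glued, the arm that binds microtubules and the dynein intermediate chain, had signals of 2771, 3105 and 2151 without endothelin, 2443, 2924 and 2011 with ET-1, 2491, 3012 and 2027 with ET-2 and 2246, 2746 and 2073 with ET-3. Each endothelin array was below the untreated array of its number, while the spread between replicate numbers was wider than that step. The change was -0.12 ± 0.057, -0.095 ± 0.057 and -0.18 ± 0.057 with ET-1, ET-2 and ET-3, with adjusted p of 0.333, 0.443 and 0.125, and -0.13 ± 0.047 for the mean (adjusted p = 0.129). The other dynactin genes were nearer to 0, with mean changes of -0.014 ± 0.046 for Dctn2, which encodes dynamitin, and -0.021 ± 0.075, -0.069 ± 0.042 and -0.040 ± 0.040 for the pointed-end subunit genes Dctn4, Dctn5 and Dctn6.

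The endothelins were also set against each other, at the same dose and time. In the 3 pairwise comparisons 0 of 40 motor genes passed in limma, beside 0% of all 15521 probe sets each time (574, 347 and 583 of them had an unadjusted p under 0.05). At an unadjusted p under 0.05 there were 1, 1 and 3 motor genes (ET-2 against ET-1, ET-3 against ET-1, ET-3 against ET-2), and without the block 0 passed as well. These were Kif1c, 0.42 ± 0.15 for ET-3 against ET-2 (95% interval 0.094 to 0.75) and 0.35 ± 0.15 for ET-3 against ET-1 (95% interval 0.023 to 0.67), and Dynlt2b, -0.28 ± 0.090 for ET-3 against ET-2 (95% interval -0.47 to -0.083). The other was Kif13a, -0.22 ± 0.080 for ET-2 against ET-1 (95% interval -0.40 to -0.050) and 0.21 ± 0.080 for ET-3 against ET-2 (95% interval 0.037 to 0.38). Kif3a was -0.20 ± 0.10 for ET-3 against ET-1 (95% interval -0.42 to 0.013). Such intervals include differences of the size seen against untreated cultures, so the 3 peptides are not shown to act alike on motor genes.

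Besides the probe set that represents each gene, 30 other probe sets carried motor symbols, and 16 of them, from 11 genes, were tested. In 2 genes another probe set passed while the representative did not. The third Klc1 probe set (1399126_at) had signals of 439.6, 379.6 and 367 without endothelin, 614, 507 and 493 with ET-1, 584, 423 and 448 with ET-2 and 655, 535 and 445 with ET-3, and every ET-1 and ET-3 array lay above all 3 untreated arrays. It rose by 0.44 ± 0.10 with ET-1 (limma adjusted p = 0.0382), by 0.45 ± 0.10 with ET-3 (adjusted p = 0.0292) and by 0.39 ± 0.079 for the mean (adjusted p = 0.0147), and was 0.28 ± 0.10 with ET-2 (adjusted p = 0.177). The representative Klc1 probe set had -0.052, -0.016 and -0.028, and the second one (1388125_a_at) -0.40, -0.19 and -0.43.

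The third Kif5a probe set (1382787_at) went the other way. Its signals were 358, 519 and 859.9 without endothelin, 296, 223 and 645 with ET-1, 277, 244 and 626 with ET-2 and 241, 283 and 704 with ET-3, lower than the untreated array in 9 of 9 pairs. It fell for the mean of the 3 endothelins, with a change of -0.62 ± 0.13 (adjusted p = 0.0188), with single changes of -0.64, -0.64 and -0.58 that did not pass (adjusted p = 0.0717, 0.0747 and 0.0791). Another Kifap3 probe set (1391618_at), also lower in 9 of 9 pairs, had a mean change of -0.42 ± 0.11 (adjusted p = 0.055). In all, 1, 0, 1 and 2 of the 16 passed with ET-1, ET-2, ET-3 and for the mean, with 5, 6, 4 and 6 under an unadjusted p of 0.05; over all tested probe sets 1.73%, 1.6%, 2.64% and 4.88% passed and 15.5%, 16.3%, 17.8% and 21.8% were under the unadjusted 0.05. Without the block 0 of the 16 passed. Leaving out replicate 1 took the Klc1 probe set to an adjusted p of 0.256 with ET-1, 0.315 with ET-3 and 0.199 for the mean, with changes of 0.42, 0.38 and 0.34. Leaving out replicate 2 took the Kif5a one to 0.143, with a change of -0.40. Which transcripts each probe set reads was not analysed here.

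**Figure D3:**
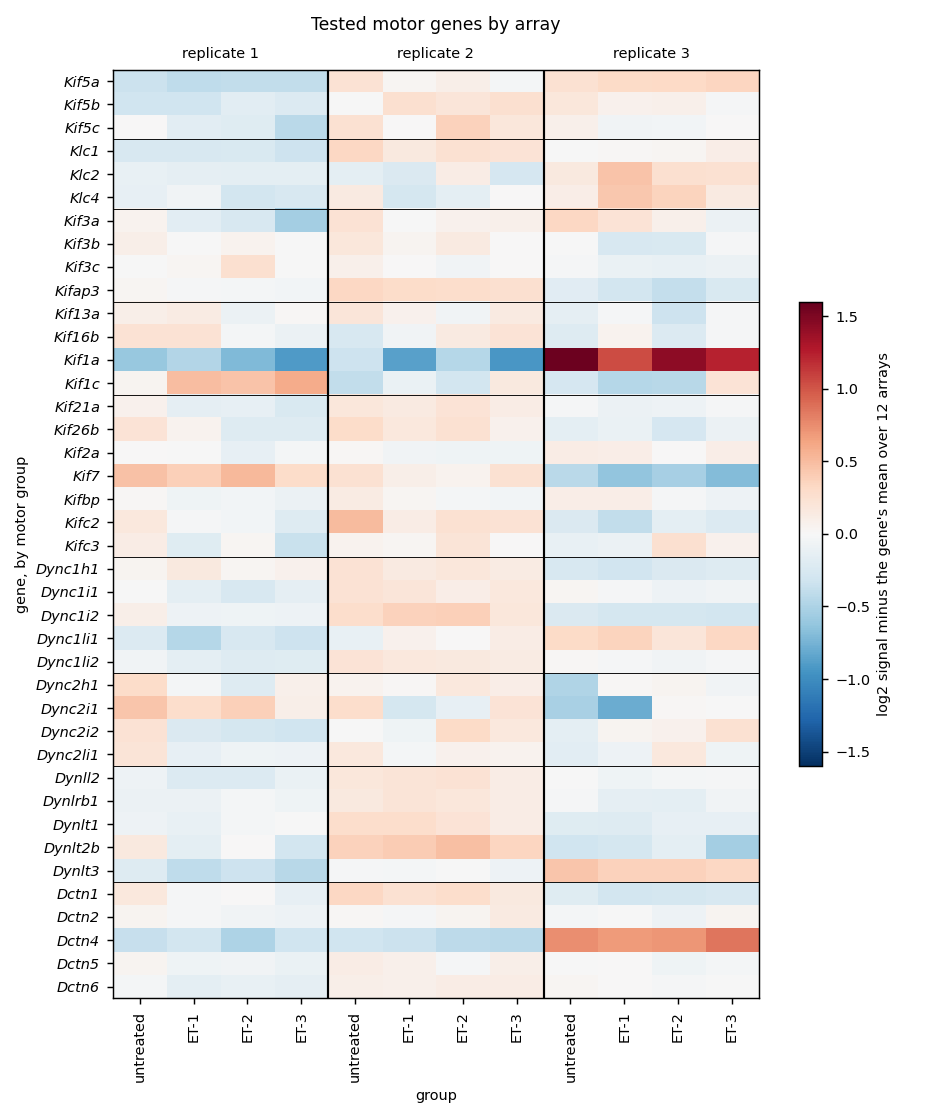
Log2 signal of the 40 tested motor genes (rows, by motor group) on each array (columns, by replicate number and then group), as the difference from the gene's own mean over the 12 arrays. Colour changes at the borders between replicate numbers; Kif1a and Dctn4 stand out in all 4 arrays of replicate 3.

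The motor genes also varied between replicate numbers. In the same fit, a moderated F-test found a difference between the 3 replicate numbers for 31 of 40 tested motor genes (77.5%), beside 72.9% of all tested probe sets. The median range between the replicate means was 0.38 log2 units for motor genes and 0.40 for all tested probe sets. A range over 1 log2 unit was held by 2 of 40 motor genes, where 11.8% of all tested probe sets had one. Leaving out arrays moved the count from 31 to between 21 and 34.

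The largest range was that of Kif1a, whose mean log2 signal was 8.01, 8.03 and 10.0 in replicates 1 to 3. Dctn4, a subunit of the pointed end of dynactin, followed with 8.58, 8.57 and 9.70, from signals of 382, 396 and 826 without endothelin, 404, 389 and 791 with ET-1, 349.8, 371 and 807 with ET-2 and 397, 368 and 897 with ET-3. Its 4 arrays of replicate 3 were all above the other 8, whatever the treatment. Kif7 ran the other way, with signals of 239, 205 and 129 without endothelin, 225, 184 and 112 with ET-1, 248, 181 and 119 with ET-2 and 212, 204 and 107 with ET-3, lowest in replicate 3. Over the tested motor genes, 20 had their lowest mean in replicate 1, 2 in replicate 2 and 18 in replicate 3, while 25 had their highest in replicate 2. The same shares were not computed over all tested probe sets.

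**Figure D4:**
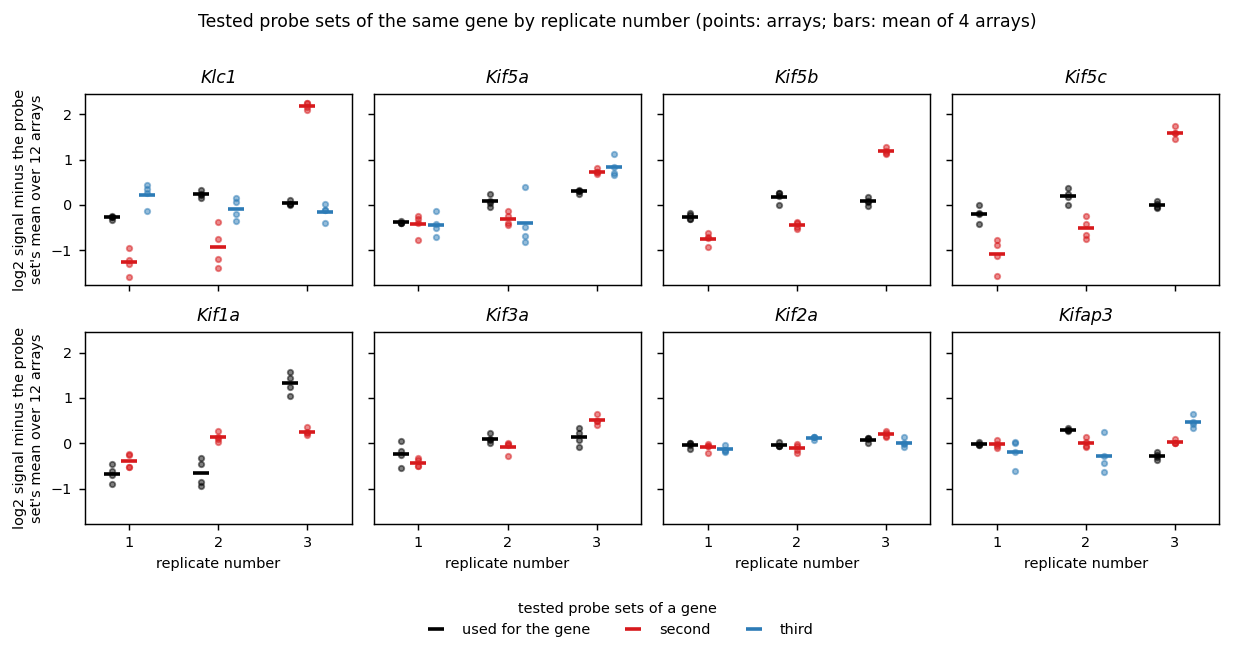
Tested probe sets of 8 motor genes by replicate number, as log2 signal minus the probe set's own mean over the 12 arrays; points are arrays, bars the mean of the 4 arrays of a replicate number, and colour tells the probe set used for the gene from the other ones. The second probe sets of Klc1, Kif5b and Kif5c are highest in replicate 3, while the probe sets used for these genes are not.

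The probe sets of a gene also differed in how they varied between replicate numbers. Of the 16 other tested probe sets, 12 passed the F-test and 5 had a range over 1 log2 unit, beside 72.9% and 11.8% of all tested probe sets. Of the 16, 14 were highest in replicate 3, a share that was not computed over all tested probe sets. For Klc1, the second probe set had mean log2 signals of 7.80, 8.12 and 11.2 in replicates 1 to 3, from array signals of 275, 411 and 2271 without endothelin, 217, 202 and 2536 with ET-1, 230.4, 314 and 2381 with ET-2 and 178, 232 and 2512 with ET-3, while the representative had 13.3, 13.8 and 13.6. For Kif5b the second probe set (1378096_at) had 7.64, 7.94 and 9.57 beside 12.3, 12.7 and 12.6 for the representative. For Kif5c the second probe set (1396154_at) had 6.45, 7.01 and 9.12, beside 11.1, 11.5 and 11.3. The arrays of replicate 3 also had the highest median signal over all probe sets, 163 to 181, against 136 to 150.3 on the other 8. The part of this difference between arrays in the probe set values was not tested.

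Motors work with adaptors that join them to cargo and on tracks built of tubulin and its binding proteins. Of 41 measured adaptor and regulator genes, 37 were tested, with a median change of -0.061, -0.039 and -0.056 with ET-1, ET-2 and ET-3. Of all tested probe sets 1.73%, 1.6% and 2.64% passed, and 16.3% had an unadjusted p under 0.05 with ET-2. Of the 37 genes, 1 passed with ET-1, 0 with ET-2 (7 had an unadjusted p under 0.05 in limma) and 1 with ET-3. That gene was Fez2, of the family of the kinesin-1 adaptor FEZ1, whose signals were 1479, 1734 and 1609 without endothelin, 2056, 2285 and 1739 with ET-1, 1762, 2167 and 1797 with ET-2 and 1964, 2330.3 and 1751 with ET-3. It rose by 0.33 ± 0.073 with ET-1 (adjusted p = 0.0408) and 0.32 ± 0.073 with ET-3 (adjusted p = 0.0382), and was 0.24 ± 0.073 with ET-2 (adjusted p = 0.129). After centring, Fez2 was at 0.101 and 0.0887 with ET-1 and ET-3, and without replicate 2 at 0.356 and 0.287. The mitochondrial adaptors Trak1 and Trak2, with Rhot1 and Rhot2, their anchors on mitochondria, did not pass, with mean changes of -0.10, -0.027, -0.062 and -0.10. Pafah1b1 and Ndel1, which regulate dynein, had 0.12 and 0.079.

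All 47 measured genes of tracks and microtubule-associated proteins were tested, with median changes of -0.031, -0.035 and -0.025. Of these, 1 passed with ET-1, 1 with ET-2 and 3 with ET-3, beside 1.73%, 1.6% and 2.64% of all tested probe sets. Tubb6, a beta-tubulin isotype, had signals of 1204, 822 and 1274 without endothelin, 3656, 2020.3 and 1727 with ET-1, 3572, 1326 and 1419 with ET-2 and 3732, 2047 and 1437 with ET-3. It rose by 1.11 ± 0.22 with ET-1 (adjusted p = 0.0219) and 1.04 ± 0.22 with ET-3 (adjusted p = 0.0256), and was 0.81 ± 0.22 with ET-2 (adjusted p = 0.0971); its highest endothelin arrays were those of replicate 1, and without it the adjusted p was 0.0887 with ET-1 and 0.147 with ET-3. Spast, which codes for the microtubule-severing enzyme spastin, had signals of 1804, 2004 and 1734 without endothelin, 1567, 1775 and 1614 with ET-1, 1477, 1722 and 1456 with ET-2 and 1450.2, 1731 and 1470.4 with ET-3. It fell with ET-2 (-0.25 ± 0.055, adjusted p = 0.0422) and ET-3 (-0.25 ± 0.055, adjusted p = 0.0309), and the 3 arrays of each lay below the 3 untreated ones. Without replicate 1, Spast was at 0.272 with ET-2 and 0.264 with ET-3.

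Map7d2, a microtubule-binding protein that recruits kinesin-1, had signals of 856, 806 and 1045 without endothelin, 793, 580.1 and 839 with ET-1, 633, 671 and 887 with ET-2 and 629.8, 591 and 845 with ET-3. It fell with ET-3 (-0.40 ± 0.10, adjusted p = 0.0491), with a mean change of -0.34 ± 0.079 (adjusted p = 0.03); without replicate 2 the ET-3 value was at 0.227. Ttll7, a tubulin polyglutamylase, passed for the mean of the 3 but not with a single endothelin (-0.20 ± 0.052, adjusted p = 0.0442). Neuronal tubulin Tubb3 and the axonal protein tau (Mapt) had mean changes of -0.054 and -0.094 and did not pass. Without the replicate block, limma gave an adjusted p of 1 to each of these calls.

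**Figure D5:**
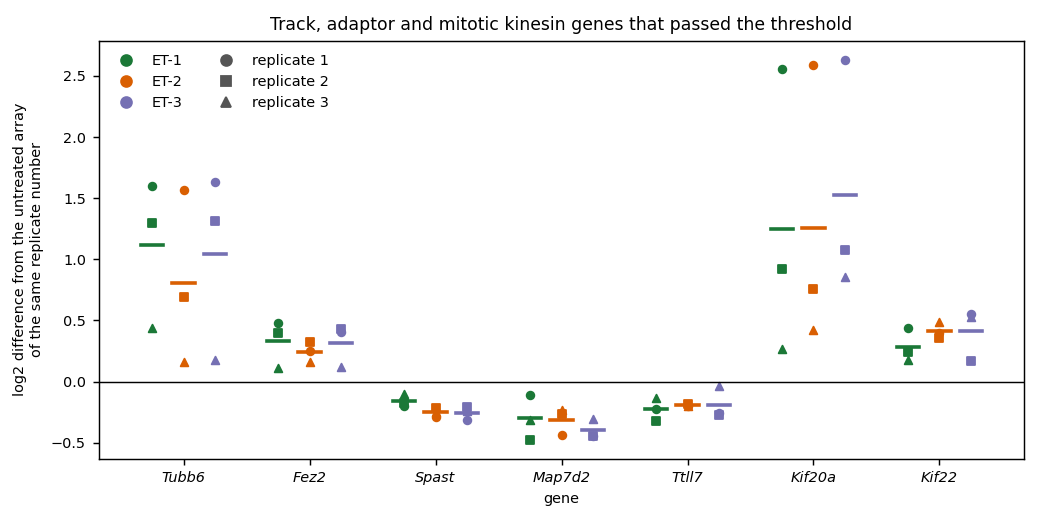
Log2 difference of each endothelin array from the untreated array of its own replicate number, for the track and adaptor genes and the left-out mitotic kinesins that passed the threshold in at least 1 comparison; symbols mark replicate numbers, bars the mean of 3 pairs. Tubb6 and Kif20a are highest in replicate 1 with each endothelin, and Spast and Map7d2 are below 0 in all 9 pairs.

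The mitotic kinesins left out by the rule work in the spindle of dividing cells. Of 11 measured, 5 were tested, and all 5 were higher than untreated for the mean of the 3 endothelins, with a median change of 0.67 beside -0.065 for the 40 transport motor genes; this difference was not tested. Kif20a, a kinesin of cytokinesis, had signals of 106, 86.2 and 119 without endothelin, 625, 163 and 143 with ET-1, 640.2, 146 and 160.1 with ET-2 and 659, 182 and 216 with ET-3. It rose with ET-3, by 1.52 ± 0.34 (adjusted p = 0.034), and Kif22, a chromosome-arm kinesin with signals of 668, 511 and 430.0 without endothelin, 903, 604 and 486 with ET-1, 878, 654 and 602 with ET-2 and 978, 574 and 618 with ET-3, rose with ET-3 by 0.41 ± 0.10 (adjusted p = 0.048). Without replicate 1 the change of Kif20a was 0.97 (adjusted p = 0.101) and that of Kif22 0.34 (adjusted p = 0.358); without untreated replicate 1 alone Kif20a had 0.90 (adjusted p = 0.0231). After centring the adjusted p was 0.0488 for Kif20a and 0.0749 for Kif22. Proliferation genes moved with them: 5 of 10 tested rose for the mean of the 3 endothelins, where 4.88% of all tested probe sets passed. The summed signals of these genes given above were highest in the endothelin arrays of replicate 1. Of 10 measured astrocyte and Mueller glia markers, 6 were higher and 4 lower for the mean of the 3, with a median change of 0.039. Only 5 of them were tested, and 3 of these rose, among them Vim, by 0.67, and Gja1, by 1.03. The part of dividing or glial cells in these values was not tested.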

How the data were processed

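The 12 arrays (4 groups of 3) were analysed from the deposited table of probe set intensity values, which the submitters' processing notes name as MAS5 output. These deposited intensities are linear, with a mean of 497 to 498 on each array after 2% of probe sets were trimmed at each end; no annotation release or genome build was given in the sources used here, so no positions are printed. Gene symbols came from the platform annotation, and all 46 members matched a RefSeq gene without a change of symbol.

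Signals were taken to log2 with no pseudocount and no further normalisation. Probe sets with a mean log2 signal at or above the median (7.20) were tested, 15521 of 31042, with limma 3.58.1 in R 4.3.3 (group means, replicate number as a block, intensity trend, two-sided p, Benjamini-Hochberg, threshold 0.05). The block was used because the rule of the gene set compares the groups by replicate number. Arrays sharing a number deviated together from their group means (r = 0.684 to 0.912 over 18 pairs of arrays). Pairs that differed in number and group had r of -0.706 to -0.0555. Deviations from a group mean cancel within the group, so these negative values are partly built in. With the block the residual SD had a median of 0.127 log2 units, and without it 0.250. The number of arrays limits the precision. The fit was run on data simulated from the same block model with independent errors. That run takes the pairing by replicate number as given and does not check it.

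The genes chosen for description were, per comparison, the 4 with the smallest p above and the 4 below the reference group. The 8 of highest signal and the 4 most variable between replicate numbers were added. Most of these are given with values on every array. Kifap3, Kif16b, Klc2, Kifc3, Dync1li1, Dync2i1, Kif2a and Dctn2 are given by their changes only. Kif1b, Kif5a and Dynlt3 are given on every array outside this rule. Others are named by role. The members and gene lists were chosen with earlier results of these data known. The alternatives were other scalings, filters and pseudocount, the second probe set of a gene, no block, no trend, fewer groups and arrays left out.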

Additional observations from a re-analysis of the deposited data

How the results depend on the processing

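The count of 0 motor genes passing with ET-1, and the counts of 0 between endothelins, held under each alternative run, including the fit with no replicate block, and so did those with ET-2, ET-3 and for the mean except as follows. Centring each array on its median gave 5 motor genes with ET-2 (Dync1li2, Kif26b, Kif2a, Dync1i1 and Kif13a), 1 with ET-3 (Kif3a) and 4 for the mean of the 3 endothelins (Dctn1, Kifc2, Kif3a and Dync1i1), and a median change with ET-2 of -0.14; of all tested probe sets 7.85%, 2.87% and 9.61% passed under the same centring, and the cause was not tested. Leaving out arrays gave 0 to 1 with ET-3 (Kif1c without untreated replicate 3, Kif3a without ET-3 replicate 2) and 0 to 1 for the mean (Kifc2 without untreated replicate 3, Kif1a without ET-1 replicate 1, Kif3a without ET-3 replicate 2), and median changes of -0.090 to -0.035 with ET-1, -0.084 to -0.031 with ET-2 and -0.108 to -0.045 with ET-3.

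Some estimates changed sign. With the second probe set of the gene, Kif1a was 0.013 with ET-1 and 0.0073 with ET-3, in place of -0.31 and -0.42, and Kif3a 0.042 with ET-2 and 0.028 with ET-3, in place of -0.24 and -0.39. Kif3a was 0.14 for ET-3 against ET-1, Dync1li1 -0.11 with ET-3, Kif5c -0.17 for ET-2 against ET-1 and Kif2a -0.013 for ET-3 against ET-2. After centring, Kif5b was -0.014 with ET-2, Dync1li1 -0.00027 with ET-3 and Klc2 -0.0043 for the mean. With arrays left out, Kif5b ran from -0.054 to 0.15 with ET-1, -0.0055 to 0.18 with ET-2, -0.054 to 0.18 with ET-3 and -0.028 to 0.16 for the mean; Klc2 from -0.048 to 0.15, -0.0099 to 0.18 and, for the mean, -0.0019 to 0.095. Kif1c ran from -0.042 to 0.25 with ET-2, Kif16b from -0.068 to 0.32 with ET-3 and -0.022 to 0.25 for the mean, and Dync1li1 from -0.048 to 0.13 with ET-3. Kif5c ran from -0.0054 to 0.19 for ET-2 against ET-1, and for ET-3 against ET-1 Kif3b ran from -0.013 to 0.12 and Dctn2 from -0.013 to 0.10. Each kept its side of the threshold.

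The calls for adaptor, track and mitotic kinesin genes and for the other Klc1 and Kif5a probe sets, checked with alternatives chosen after seeing the data, kept their direction in every setting run and lost their pass in 192 of 379 tests, among them each test with no replicate block. The error differed between genes: the SE of the change for the mean of the 3 endothelins was 0.16 for Dync2i1 and 0.12 for Kif1c, beside a median of 0.089 over all tested probe sets.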
